A study of Mus musculus with 8 samples.

Results

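Galectins and annexins were described by 8 genes: the galectins Lgals1, Lgals3 and Lgals9 and the annexins Anxa1, Anxa2, Anxa3, Anxa4 and Anxa5. They were chosen by name and are 8 of the 30406 genes counted in every library. Galectins are small lectins that bind beta-galactosides on glycoproteins and leave the cell without a signal peptide, and galectin-3 is a classical marker of activated macrophages. Annexins bind negatively charged membrane lipids when calcium rises. Annexin A1 signals through formyl peptide receptors and limits neutrophil entry into tissue, annexin A2 forms a complex with S100A10 at the membrane, and annexin A5 binds the phosphatidylserine that dying cells expose.

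Leukocytes (CD45+) that had not been reached by an intravenously injected CD45 antibody were sorted from brain parenchyma, pia and dura of adult male C57BL/6 mice and profiled by droplet-based single-cell RNA sequencing. Mice were either controls or had undergone transient middle cerebral artery occlusion (MCAO), a stroke model in which an artery is closed for minutes and reopened, and were killed 24 h or 72 h later. The 8 libraries were control brain, brain 24 h (replicates 1 and 2), brain 72 h, control pia, pia 24 h, control dura and dura 24 h, so that a single condition had a replicate library. All mice were wild-type and carried no transgene. The Methods call the sequenced controls naive and a figure legend calls them sham-operated, the number of mice is given per compartment and not per library, and occlusion times are given without assigning one to each library. Labels disagree on 1 library, control pia, which its title assigns to brain parenchyma and its other labels to pia.

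Levels were computed from 21 clusters that the study named by hand, among them microglia (Micro_1 to Micro_3, stress_Micro), CNS-associated macrophages (CAM_1, CAM_2), stroke-associated myeloid cells (SAMC), other macrophages (Macro_1, Macro_2), granulocytes (Granulo_1, Granulo_2), myeloid dendritic cells (mDC1, mDC2), T cells (Tc, gdTc), natural killer cells (NK), B cells (Bc), type 2 innate lymphoid cells (ILC2), mast cells (Mast) and proliferating cells (prolif_cells). The unique molecular identifiers (UMIs, counted transcripts) of all cells of a cluster in a library were summed and divided by the sum over all genes, in counts per 1000000 (CPM). Of these sums, 112 held at least 30 cells and were used. The total was between 6591898 and 20754181 UMIs per library, and 32457 of 36854 cell barcodes carried a cluster name. Brain 24 h replicate 2 and brain 72 h stood apart: both were counted on a gene list of 31053 genes in place of 32285, and they shared 0 to 2 cell barcodes with each of the other 6 libraries, which shared 12 to 43 with one another. Summed markers of red blood cells (512 CPM), oligodendrocytes (172 CPM), astrocytes (33.9 CPM) and neurons (19.0 CPM) were all highest in brain 24 h replicate 2, and red blood cell markers were 322 CPM in brain 72 h and at 0 in control brain and brain 24 h replicate 1, against 146 to 794 CPM of the leukocyte gene Ptprc.

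Promoter sequences are shown for Lgals3, Anxa1 and Anxa2, which were highest in Granulo_1 or Granulo_2 and whose windows held matches to the motifs searched. Anxa5 was also highest in Granulo_1, but its window held 0 matches and is not printed. Each run covers 250 bases before to 50 bases after a RefSeq transcript start on GRCm38.p6, 5′ to 3′ on the strand of the gene, and capitals mark matches to the motifs searched. The windows are chr14:47373610-47373909 on the plus strand for Lgals3, chr19:20390622-20390921 on the minus strand for Anxa1 and chr9:69453433-69453732 on the plus strand for Anxa2.
Lgals3: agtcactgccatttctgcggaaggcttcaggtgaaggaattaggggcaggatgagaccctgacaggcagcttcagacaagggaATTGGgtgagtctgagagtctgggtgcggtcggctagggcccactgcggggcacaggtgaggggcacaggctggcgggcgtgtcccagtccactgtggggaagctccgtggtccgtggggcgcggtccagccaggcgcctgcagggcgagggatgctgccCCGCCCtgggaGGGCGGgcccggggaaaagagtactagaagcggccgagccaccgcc
Anxa1: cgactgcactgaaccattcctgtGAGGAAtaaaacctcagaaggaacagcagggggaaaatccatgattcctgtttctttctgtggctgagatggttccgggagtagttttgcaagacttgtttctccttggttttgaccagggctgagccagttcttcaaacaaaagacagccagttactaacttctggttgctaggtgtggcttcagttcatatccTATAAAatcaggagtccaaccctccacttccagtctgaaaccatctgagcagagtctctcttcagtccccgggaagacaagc
Anxa2: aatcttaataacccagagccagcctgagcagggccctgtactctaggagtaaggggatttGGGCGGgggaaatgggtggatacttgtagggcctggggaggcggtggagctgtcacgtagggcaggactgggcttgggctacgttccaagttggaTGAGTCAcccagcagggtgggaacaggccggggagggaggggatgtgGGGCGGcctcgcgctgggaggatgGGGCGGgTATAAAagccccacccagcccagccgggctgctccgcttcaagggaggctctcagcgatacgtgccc

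The motifs were searched on both strands of all 32851 promoter windows of the same length. The TATA box (TATAAA), which places the start of transcription, was found in the windows of Anxa1 and Anxa2 and in 13.6% of all windows. The AP-1 motif (TGANTCA) was found once in Anxa2, where the same bases match on both strands, and in 7.81% of all windows. The PU.1 motif (GAGGAA), bound by a factor of the myeloid lineage, was found once in Anxa1 and in 28.3% of all windows. The Sp1 motif (GGGCGG) was found 3 times in Anxa2, 2 times in Lgals3 and in 35.7% of all windows, and the CCAAT box (CCAAT) once in Lgals3, on the minus strand, and in 37.4% of all windows. An NF-kB motif, present in 1.63% of all windows, was found in none of these 3 windows. A match describes the letters of the window and no binding was measured.

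The genes lie on GRCm38 at chr15:78926725-78930465 (Lgals1, plus strand), chr14:47367751-47386160 (Lgals3, plus), chr11:78962974-78984946 (Lgals9, minus), chr19:20373428-20390944 (Anxa1, minus), chr9:69453620-69491795 (Anxa2, plus), chr5:96793339-96845966 (Anxa3, plus), chr6:86736840-86793584 (Anxa4, minus) and chr3:36448923-36475894 (Anxa5, minus). Anxa1, Anxa2 and Anxa4 each overlap 1 other counted gene (1500015L24Rik, Gm16144 and Gm44036), always on the opposite strand, which the strand-specific 3′ kit keeps apart.

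The 8 genes divided the clusters in different ways. Lgals3 had its highest mean in Granulo_1 (3155 CPM), while Granulo_2 (1139 CPM) was below SAMC, prolif_cells, CAM_2 and mDC1. Anxa1 was highest in Granulo_2 and Anxa3 in microglia. Anxa2 was highest in Granulo_1, followed by Granulo_2, NK, prolif_cells, mDC2 and mDC1. Both Granulo names are those of the study. The neutrophil genes S100a9 and Retnlg were 71778 and 16285 CPM in Granulo_2. Their means over all clusters, Granulo_2 included, were 3503 and 791 CPM, which leaves little of them for Granulo_1. Because the clusters were made from these counts, the levels of clusters are a description and were not tested. Of 152 pairs of clusters that are neighbours in the order of a member's level, 9 differed by more than the larger of their SDs. These SDs span libraries of different tissues and times and leave out that 2 clusters can come from the same libraries. Within shared libraries some of the other neighbours kept their order, such as Anxa2, higher in Granulo_1 than in Granulo_2 in 6 of 6. Others did not, such as Lgals1, higher in SAMC than in CAM_2 in 2 of 4.

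**Figure D1:**
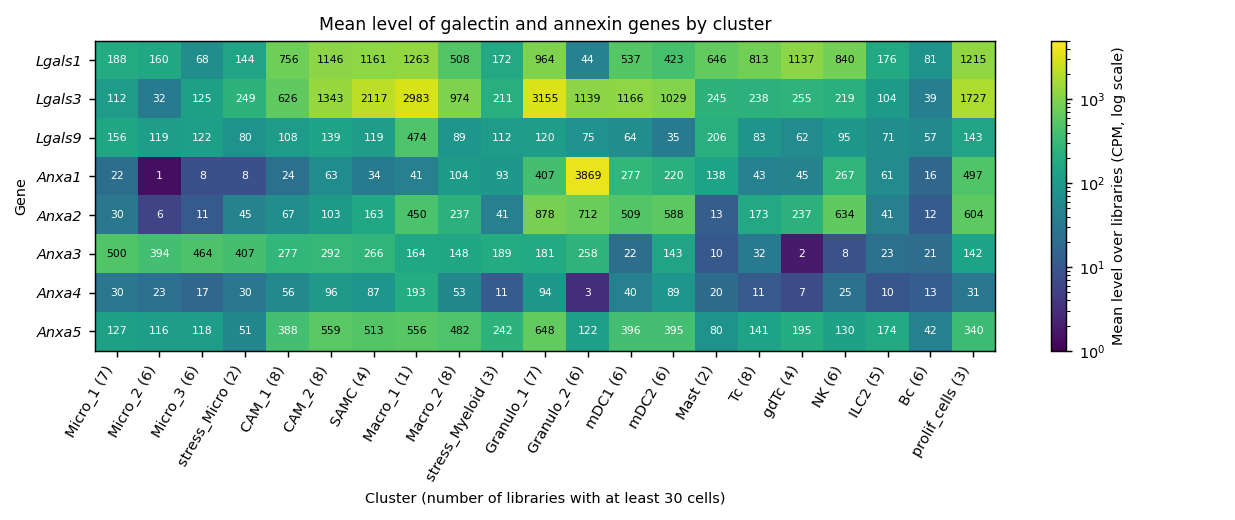
Mean level of each of the 8 genes (rows, CPM on a logarithmic colour scale, value printed in each cell) in each of the 21 clusters (columns, with the number of libraries of at least 30 cells averaged). Lgals3 reaches 3155 CPM in Granulo_1, Anxa1 reaches 3869 CPM in Granulo_2, and Anxa3 is highest in the 4 microglia clusters.

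Lgals3 encodes galectin-3. In Granulo_1 its level was 4488 and 2388 CPM in brain 24 h replicates 1 and 2, 2987 CPM in brain 72 h, 376 CPM in control pia, 4995 CPM in pia 24 h, 2971 CPM in control dura and 3879 CPM in dura 24 h, with a mean of 3155 ± 1531 CPM (SD, n = 7 libraries). Control pia stood far below the other 6 libraries, and its 55 Granulo_1 cells also had the lowest median depth of this cluster, 1003 UMIs per cell against 2296 to 5668 elsewhere. The means of SAMC (2117 ± 1252 CPM, n = 4), prolif_cells (1727 ± 1076 CPM, n = 3) and CAM_2 (1343 CPM, n = 8) followed, and Macro_1 had 2983 CPM in the only library with at least 30 of its cells, brain 72 h. Bc (38.6 ± 23.3 CPM, n = 6) and Micro_2 (32.2 ± 21.5 CPM, n = 6) had the lowest means.

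The shares of cells with a UMI of Lgals3 followed the same order for Granulo_1, SAMC and B cells. After each cell was thinned to 1000 UMIs and shallower cells were left out, 88.4% ± 7.05 of Granulo_1 cells (SD, n = 6 libraries) and 54.3% ± 26.4 of SAMC (n = 4) held at least 1 UMI of Lgals3, against 3.24% ± 2.99 of B cells (n = 5), a cluster near the bottom of the order that serves here as the background. Control pia, with 55 Granulo_1 cells at a median of 1003 UMIs, is not among the 6 libraries of this cluster after thinning. Without thinning, and with control pia, the shares were 85.2% ± 28.8 (n = 7) in Granulo_1 and 4.57% ± 1.78 (n = 6) in B cells. The median depth of B cells was 805 to 1638 UMIs in these libraries against 1003 to 5668 UMIs in Granulo_1. In CAM_2 the thinned share was 1.01% in control brain, with an exact 95% binomial interval of 0.0256% to 5.5%, and 83.4% in brain 72 h, with an interval of 80.3% to 86.2%. The CAM_2 share in control brain was thus at the background. Intervals here and below cover counting error only.

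Within CAM_2, the level of Lgals3 was 5.09 CPM in control brain, 3669 and 1948 CPM in brain 24 h replicates 1 and 2, 2882 CPM in brain 72 h, 47.3 CPM in control pia, 931 CPM in pia 24 h, 546 CPM in control dura and 718 CPM in dura 24 h. In CAM_1 the corresponding levels were 44.6, 928, 524, 2900, 16.1, 125, 81.9 and 387 CPM. In both clusters every library after MCAO was above the control library of its own tissue, and the highest control, the dura, was below every library after MCAO.

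Lgals1 encodes galectin-1, a lectin that T cells and macrophages make. Its highest mean over at least 2 libraries was in prolif_cells (1215 ± 307 CPM, n = 3), and SAMC (1161 ± 1059 CPM, n = 4), CAM_2 (1146 ± 815 CPM, n = 8) and gdTc (1137 CPM, n = 4) were within the SD of it. In SAMC the level was 260 and 423 CPM in brain 24 h replicates 1 and 2, 2556 CPM in brain 72 h and 1406 CPM in pia 24 h, so that the brain at 24 h was lowest and the brain at 72 h highest. Tc were steadier, between 535 CPM in brain 24 h replicate 2 and 1144 CPM in control pia. Granulo_2 had the lowest mean of Lgals1, 43.9 ± 35.7 CPM (n = 6), against 964 CPM in Granulo_1 (n = 7).

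SAMC were compared with the other macrophage clusters (CAM_1, CAM_2, Macro_1 and Macro_2, pooled) of the same library, which removes differences between libraries. Lgals3 was higher in SAMC in 4 of 4 libraries with enough SAMC, by 1.65-fold and 1.34-fold in brain 24 h replicates 1 and 2, 1.52-fold in brain 72 h and 1.64-fold in pia 24 h. The study lists Lgals3 among the top genes of the SAMC cluster, found in these same cells. The 4 of 4 are thus a description and no independent support. Against CAM_2 alone, Lgals3 was lower in SAMC in brain 24 h replicate 1 (2684 against 3669 CPM), brain 24 h replicate 2 (1383 against 1948 CPM) and pia 24 h (817 against 931 CPM) and higher in brain 72 h (3584 against 2882 CPM). Against the pooled microglia clusters the ratio of Lgals3 was 24.2, 23.5, 37.6 and 7.05 in the same order. Anxa5 was also higher in SAMC than in the other macrophages in 4 of 4 libraries, by 2.29-fold, 1.18-fold, 1.38-fold and 1.11-fold, but the exact 95% Poisson interval held the macrophage value in brain 24 h replicate 2 (181 to 308 CPM against 202 CPM) and in pia 24 h (400 to 590 CPM against 442 CPM). Anxa3 in SAMC was 0.536, 0.546, 0.349 and 0.903 times its level in microglia.

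**Figure D2:**
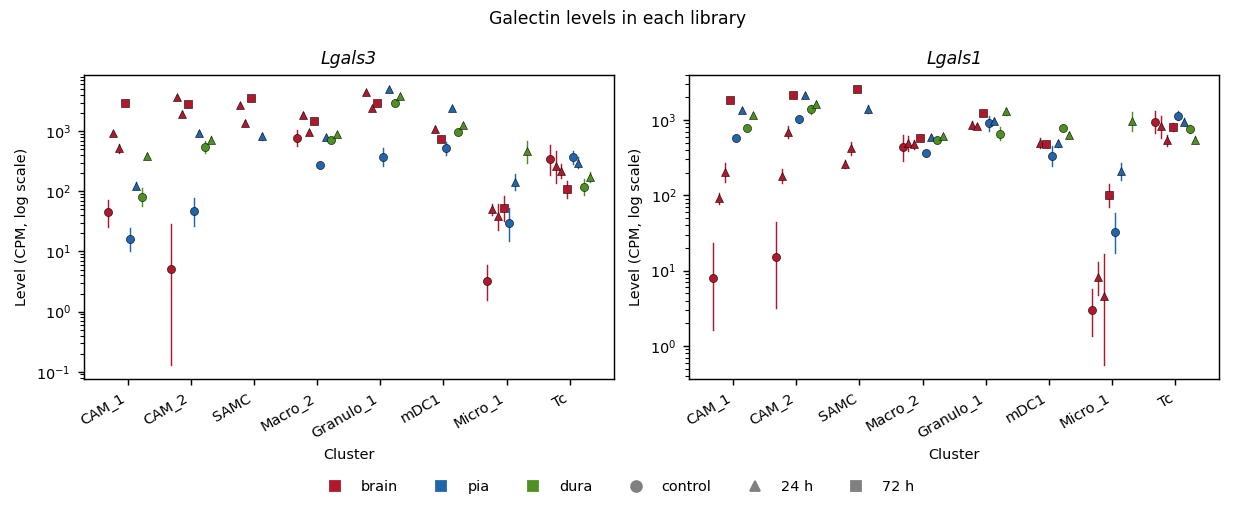
Level of Lgals3 (left) and Lgals1 (right) in CPM on a logarithmic axis in 8 clusters, 1 point per library with at least 30 cells, coloured by tissue and shaped by time after MCAO, with exact 95% Poisson intervals as vertical lines. In CAM_1 and CAM_2 the control brain library lies below all 24 h and 72 h brain libraries for both genes.

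Lgals9 encodes galectin-9, a ligand of the T cell receptor TIM-3. Its level ran from 11.8 to 474 CPM over the 112 sums with a median of 93.4 CPM. The highest level was in Macro_1 of brain 72 h, and among clusters with at least 2 libraries Mast led with 206 ± 15.4 CPM (n = 2), followed by Micro_1 with 156 ± 71.6 CPM (n = 7). Brain 72 h had the highest level of Lgals9 in Micro_1 (312 CPM against 98.7 to 148 CPM in the other 6 libraries), in Micro_2 and in Micro_3 (227 CPM against 89.2 to 129 CPM). This was not particular to microglia. Brain 72 h was also highest in CAM_1 (211 CPM), CAM_2 (276 CPM), Granulo_1 (222 CPM) and SAMC (217 CPM), among others. In Macro_2 (126 against 129 CPM) and Tc (119 against 149 CPM) control brain was higher. Brain 72 h was not highest in Granulo_2, NK, gdTc, ILC2 or prolif_cells either, with 83.4 CPM in NK against 146 CPM in control dura. Brain 72 h also stands apart by gene list and barcodes.

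Anxa1 encodes annexin A1 and was concentrated in Granulo_2, the cluster with the highest mean of the neutrophil genes S100a8, S100a9, Hp and Retnlg. Its level in Granulo_2 was 2419 and 1558 CPM in brain 24 h replicates 1 and 2, 1038 CPM in brain 72 h, 4429 CPM in pia 24 h, 6183 CPM in control dura and 7584 CPM in dura 24 h, with a mean of 3869 ± 2643 CPM (SD, n = 6). The 3 brain libraries, all after MCAO, were below the 3 meningeal ones in this cluster. It had a control library of at least 30 cells in dura alone and was not fitted. The next cluster, prolif_cells, had 497 ± 449 CPM (n = 3), and the difference between these neighbours was larger than the larger SD. Granulo_2 led in all 6 libraries with at least 30 of its cells. Control brain and control pia held 4 and 10 of them and were left out. Their Anxa1 levels were 4614 CPM (26 UMIs, interval 3014 to 6761 CPM) and 6388 CPM (161 UMIs). The control brain value was thus above pia 24 h and did not share the lower level of the brain libraries after MCAO. It supplied 80.7% of all Anxa1 UMIs of dura 24 h with 7.95% of the cells of that library. In Micro_2, Anxa1 was at 1.39 ± 1.62 CPM (n = 6).

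Anxa2 encodes annexin A2 and led in Granulo_1 (878 ± 433 CPM, n = 7), Granulo_2 (712 ± 160 CPM, n = 6) and NK (634 ± 148 CPM, n = 6), which did not differ beyond their SDs. In Granulo_1 it was 1530 and 809 CPM in brain 24 h replicates 1 and 2, 838 CPM in brain 72 h, 111 CPM in control pia, 1165 CPM in pia 24 h, 751 CPM in control dura and 943 CPM in dura 24 h, so that control pia was again the lowest. The lowest means were 5.81 ± 3.47 CPM in Micro_2 (n = 6) and 11.3 ± 7.76 CPM in Micro_3 (n = 6), followed by Bc (11.8 CPM) and Mast (13.0 CPM). The genes whose level over the 21 clusters was most like that of Anxa2 included S100a6 (Pearson r = 0.94 on log2(CPM + 10)) and S100a11 (0.88), which encode annexin-binding S100 proteins, beside Hpcal1, Tspo and Zyx. These points share libraries and depth and no p is given.

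Anxa3 encodes annexin A3. It was highest in Micro_1 (500 ± 132 CPM, n = 7), Micro_3 (464 ± 54.8 CPM, n = 6), stress_Micro (407 ± 32.2 CPM, n = 2) and Micro_2 (394 ± 120 CPM, n = 6), and lowest in gdTc (1.86 ± 2.27 CPM, n = 4). In Micro_1 it was 619 CPM in control brain, 534 and 549 CPM in brain 24 h replicates 1 and 2, 552 CPM in brain 72 h, 566 CPM in control pia and 456 CPM in pia 24 h, a narrow range that only dura 24 h left, with 222 CPM from 36 cells. Those 36 cells held 203 CPM of the microglia gene Tmem119 and 462 CPM of the macrophage gene Pf4, whereas the 207 Micro_1 cells of control pia held 1532 and 87.5 CPM. The genes most like Anxa3 over the clusters were Sirpa (r = 0.94), Adam15, Ralb, Lamp2 and Itgam.

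Anxa4 and Anxa5 encode annexins A4 and A5. Anxa4 passed 100 CPM in 10 of 112 sums and had means of 96.1 ± 32.7 CPM in CAM_2 (n = 8), 94.3 ± 22.7 CPM in Granulo_1 (n = 7) and 89.0 ± 21.5 CPM in mDC2 (n = 6). It was nearly absent from Granulo_2 (3.08 ± 3.22 CPM, n = 6), the cluster in which Anxa1 was highest. Anxa5 was led by Granulo_1 (648 ± 188 CPM, n = 7), CAM_2 (559 ± 290 CPM, n = 8) and SAMC (513 ± 201 CPM, n = 4) and was lowest in Bc (41.6 ± 26.9 CPM, n = 6). Over the 21 clusters its correlation was 0.81 with Lgals3 and 0.72 with Anxa4, whereas that of Anxa1 with Anxa4 was -0.07.

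**Figure D3:**
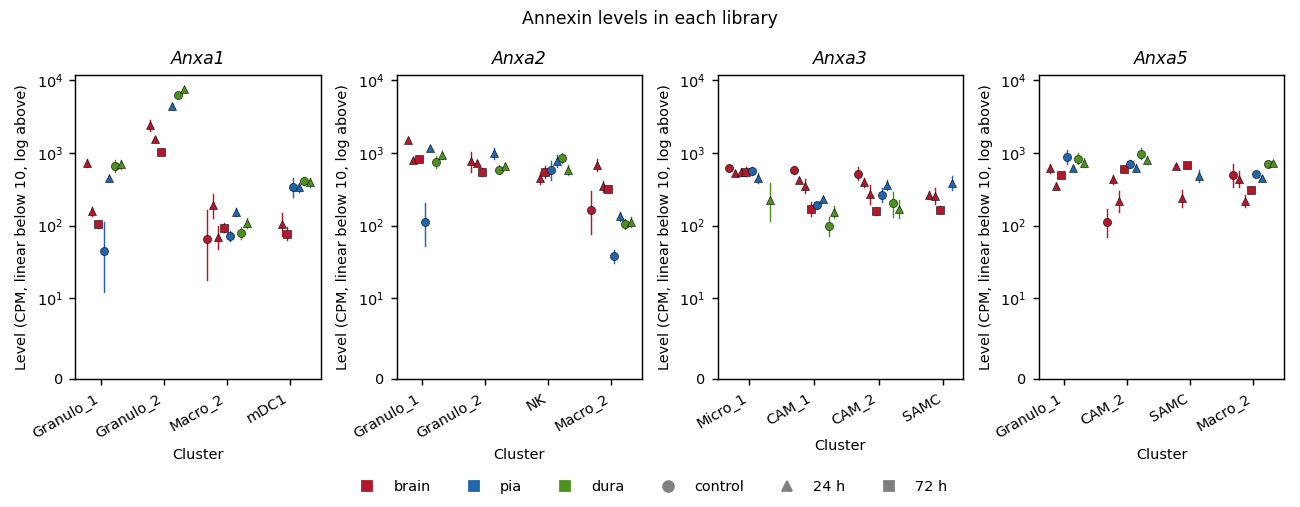
Level of Anxa1, Anxa2, Anxa3 and Anxa5 in CPM (linear below 10, logarithmic above) in 4 clusters each, 1 point per library with at least 30 cells, coloured by tissue and shaped by time after MCAO, with exact 95% Poisson intervals as vertical lines. Anxa1 in Granulo_2 runs from 1038 CPM in brain 72 h to 7584 CPM in dura 24 h, while Anxa3 in Micro_1 stays between 456 and 619 CPM except in dura 24 h.

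Over all annotated cells of a library, the level follows both the level within clusters and how many cells of each cluster were sorted. Lgals3 was 32.3 CPM in control brain, 954 and 769 CPM in brain 24 h replicates 1 and 2 and 2049 CPM in brain 72 h, and Lgals1 was 25.3, 117, 315 and 1241 CPM in the same libraries. In brain 72 h, Granulo_1 supplied 32.4% of the Lgals3 UMIs, SAMC 24.9% and CAM_2 21.2%, with 21.7%, 8.02% and 10.6% of the cells. Control brain held 5 cells of Granulo_1 and 1 of SAMC, so most of these UMIs came from clusters that control brain nearly lacked. Anxa3 went down over the same libraries, from 547 CPM in control brain to 417, 246 and 157 CPM.

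The first comparison asked which members changed by 24 h after MCAO at a given tissue. Sums of at least 30 cells were fitted with edgeR's quasi-likelihood test in 8 clusters that had them in at least 6 libraries, with tissue and time as additive terms, and a member was called at a Benjamini-Hochberg adjusted p under 0.05 over all genes of the cluster with at least a 2-fold change. No member was called in 61 tests, against 0.0196% of all 61308 gene tests. At an unadjusted p under 0.05 in edgeR there were 9 of 61 member tests. Among all genes the share ran from 54 of 7357 in Micro_1 to 435 of 6508 in CAM_2. DESeq2 called 1 member, Lgals3 in CAM_1. The median log2 fold change was 0.14 over the member tests and 0.09 over all tests, with 33 of 61 above 0.

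Lgals3 had the largest positive values, with a log2 fold change of 4.04 (SE 1.62, adjusted p = 0.735 in edgeR's quasi-likelihood test) in CAM_2, 3.06 (SE 0.53, adjusted p = 0.436) in CAM_1 and 2.95 (SE 0.66, adjusted p = 1) in Micro_1. In Micro_1 the levels behind it were 3.28 CPM in control brain, 50.3 and 39.0 CPM in brain 24 h, 30.1 CPM in control pia and 145 CPM in pia 24 h, so both tissues were higher at 24 h. Across all pairs of a 24 h library and its own control with at least 30 cells, Lgals3 was higher in 37 of 42 and higher with counting intervals that did not overlap in 26, whereas none was lower in that way. Lgals1 was higher in 29 of 42, Anxa2 in 32 and Anxa1 in 26, while Anxa5 was higher in 14 and Lgals9 in 13. These pairs share control libraries and are not independent. Their intervals cover counting error within a library and not the spread between libraries. The same counts over all genes are not given, so it is open how unusual those of the members are. In the fits no member was called at 24 h.

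These counts turned on 1 library. Without brain 24 h replicate 2, edgeR's quasi-likelihood test called 9 of 61 members at 24 h, all higher, and 2.52% of all genes. The 9 were Lgals3 in CAM_1 (log2 fold change 3.13), Micro_1 and Micro_2, Lgals1 in the same 3 clusters, Anxa2 in Granulo_1 and Macro_2, and Anxa1 in CAM_1. Without replicate 1 there was 1 call. With either replicate left out, here and in the comparisons below, no condition has a replicate library. The spread in such fits comes only from the misfit of the additive tissue and time terms, so their calls rest on no spread between replicate libraries. Shares of all genes called are given only for edgeR's main fits and the fits without replicate 2, not for DESeq2 or other alternatives.

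The second comparison set the single brain 72 h library against the brain 24 h libraries in the same fits. No member was called in 61 tests, against 0.0522% of all tests, while 16 had an unadjusted p under 0.05 in edgeR. Among all genes that share ran from 92 of 5883 in Granulo_1 to 1023 of 8718 in CAM_1. DESeq2 called 2 members, Lgals1 and Anxa2 in CAM_1. The median log2 fold change was 0.53 over the members and -0.02 over all tests.

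The largest values were in CAM_1. Anxa1 went from 0.666 and 4.16 CPM at 24 h, 1 UMI in each library, to 75.2 CPM at 72 h, with a log2 fold change of 5.21 (SE 0.90, adjusted p = 0.0784 in edgeR's quasi-likelihood test). Lgals1 went from 91.3 and 204 CPM to 1854 CPM (4.20, SE 0.76, adjusted p = 0.0887), and Anxa2 from 22.6 and 37.4 CPM to 376 CPM (3.95, SE 0.61, adjusted p = 0.0549). In CAM_2, Anxa2 was 27.0 and 88.3 CPM at 24 h and 402 CPM at 72 h (3.55, SE 0.81, adjusted p = 0.145). All 3 genes were thus higher at 72 h than in either 24 h library, but brain 72 h is also 1 of the 2 libraries that stand apart by gene list and barcodes, and Pf4 in these CAM_1 sums went from 4.66 and 179 CPM to 487 CPM while Tmem119 went from 1344 and 291 CPM to 194 CPM. The part of these in the difference was not tested. Without brain 24 h replicate 2, 22 of 61 members were called by edgeR, among 26.4% of all genes, with Anxa3 in CAM_1 and CAM_2 and Anxa1 in Granulo_1 lower and the other 19 higher. Leaving out control pia gave 1 call, Anxa2 in CAM_1.

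The third comparison asked how the meningeal layers differed. Between dura and pia at the same time no member was called in 47 tests in 6 clusters, against 0.0292% of all 44493 tests, and DESeq2 called 0. At an unadjusted p under 0.05 in edgeR there were 6 member tests. Among all genes that share ran from 70 of 6361 in Tc to 299 of 7357 in Micro_1. Anxa1 in CAM_2 was 127 and 234 CPM in control and 24 h dura and 15.8 and 48.4 CPM in control and 24 h pia, with a log2 fold change of 2.55 (SE 0.77, adjusted p = 1 in edgeR's quasi-likelihood test). Both dura libraries were above both pia libraries. Lgals3 in CAM_1 was 81.9 and 387 CPM in dura and 16.1 and 125 CPM in pia (2.06, SE 0.63, adjusted p = 1), a difference in which the groups overlapped. Without brain 24 h replicate 2, which shares the estimate of the spread, 8 of 47 members were called by edgeR among 1.77% of all genes, these 2 included; without replicate 1 there was 1.

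The fourth comparison asked how leukocytes of the parenchyma differed from those of the meninges. Brain was set against the mean of pia and dura, and 4 of 47 member tests were called, all lower in brain, against 2.12% of all 44493 tests, in which 365 were higher and 579 lower. All 4 calls were in CNS-associated macrophages, where 7.1% of the genes of CAM_1 and 3.81% of those of CAM_2 were called. A further 14 member tests had an unadjusted p under 0.05 in edgeR. Among all genes that share, calls included, ran from 271 of 5883 in Granulo_1 to 2091 of 8718 in CAM_1. The median log2 fold change was -0.52 over the members and 0.15 over all tests. Since 72 h was sampled in brain alone and has its own term, this contrast rests on the control and 24 h libraries.

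Lgals1 in CAM_1 was 7.86 CPM in control brain, from 3 UMIs, and 91.3 and 204 CPM in brain 24 h replicates 1 and 2, against 582 and 1366 CPM in control and 24 h pia and 780 and 1160 CPM in control and 24 h dura. The groups did not overlap at these times, and only brain 72 h, with 1854 CPM, was above the meninges. The log2 fold change was -4.48 (SE 0.69, adjusted p = 0.00795 in edgeR's quasi-likelihood test). In CAM_2, where brain 24 h replicate 2 reached 689 CPM, it was -3.43 (SE 0.86, adjusted p = 0.0562) and missed the threshold.

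Anxa1 in CAM_1 was seen with 1 UMI in each of control brain and both brain 24 h libraries, or 2.62, 0.666 and 4.16 CPM, against 11.7 and 43.1 CPM in control and 24 h pia and 17.2 and 33.8 CPM in control and 24 h dura. Its log2 fold change was -4.56 (SE 0.78, adjusted p = 0.012 in edgeR's quasi-likelihood test), a fitted value that depends on the prior count at such low counts. In CAM_2, Anxa1 was at 0 UMIs in control brain, for which a limit of 3 UMIs is 15.3 CPM, at 2.08 and 35.3 CPM in brain 24 h replicates 1 and 2, and at 15.8 to 234 CPM in the meninges (-3.56, SE 0.79, adjusted p = 0.0292). The brain and meningeal ranges overlapped in CAM_2 and did not in CAM_1 at these times. Brain 72 h, with 75.2 CPM in CAM_1, was above the meninges, and with 44.3 CPM in CAM_2 it was within their range.

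Anxa5 in CAM_1 was 60.3 CPM in control brain and 220 and 146 CPM in brain 24 h replicates 1 and 2, against 451 and 385 CPM in control and 24 h pia and 681 and 632 CPM in control and 24 h dura, without overlap at these times. Brain 72 h, with 531 CPM, was within the meningeal range. The log2 fold change was -2.46 (SE 0.51, adjusted p = 0.0249 in edgeR's quasi-likelihood test). In CAM_2 it was -1.95 (SE 0.52, adjusted p = 0.0566). Lgals3 in CAM_1, at 0.82 (SE 0.48, adjusted p = 0.331), did not share this direction, and neither did Anxa3, at 1.05 (SE 0.41, adjusted p = 0.166), and neither of these passed the test.

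Markers of another cell type moved with these 4 results. Of the microglia genes, Tmem119 in CAM_1 was 3085 CPM in control brain, 1344 and 291 CPM in brain 24 h replicates 1 and 2 and 194 CPM in brain 72 h, against 25.9 to 51.3 CPM in the meninges, and P2ry12, Sparc and Cx3cr1 were likewise highest in control brain. Of the 3 border macrophage genes, Pf4 in CAM_1 was 31.5, 4.66, 179 and 487 CPM in the same brain libraries and 2277 to 4077 CPM in the meninges, and Lyve1 had 0 UMIs in control brain and brain 24 h replicate 1. CAM_2 showed the same order, with Tmem119 at 3268 CPM and Pf4 at 5.09 CPM in control brain. Mrc1 in CAM_1 was 10.5, 2.00, 216 and 73.1 CPM in the brain libraries and 546 to 994 CPM in the meninges. The border macrophage markers were thus lower in every brain library than in any meningeal one in CAM_1, and the part of this in the lower Lgals1, Anxa1 and Anxa5 was not tested. Without the CAM_1 and CAM_2 sums of control brain, Lgals1 and Anxa1 in CAM_1 stayed called and Anxa1 in CAM_2 (log2 fold change -3.15, adjusted p = 0.157 in edgeR) and Anxa5 in CAM_1 (-1.93, adjusted p = 0.19) did not.

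The calls also depended on single libraries, and of these fits the share of all genes called is given only for the one without brain 24 h replicate 2. Lgals1 in CAM_1 was called in 17 of 17 alternative fits, with log2 fold changes from -5.17 to -3.76. Leaving out control dura, dura 24 h or pia 24 h left Lgals1 in CAM_1 as the only call, whereas without brain 24 h replicate 1 there were 11 calls and without replicate 2 there were 17, among 11.4% of all genes. Among those 17 were Lgals1 (log2 fold change -5.30) and Anxa5 (-1.82) in Micro_1, lower in brain, and Anxa2 in Macro_2 (1.74) and Lgals3 (1.18) and Anxa3 (1.29) in CAM_1, higher in brain. In Micro_1, Pf4 was 87.5 to 462 CPM in the meninges and 0.657 to 5.58 CPM in brain, and the part of this in the Micro_1 differences was not tested.

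**Figure D4:**
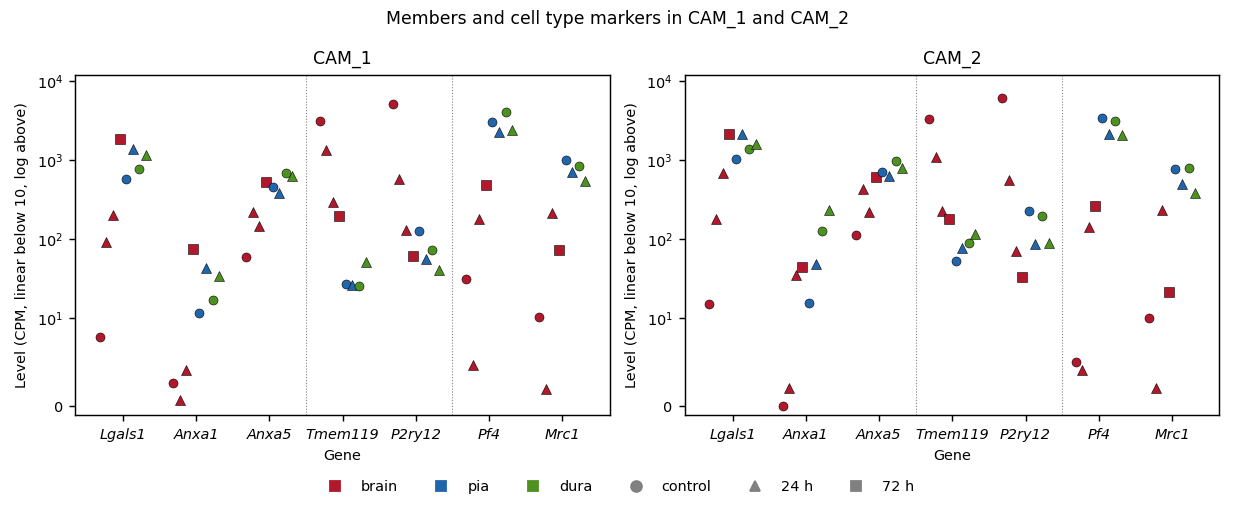
Level (CPM, linear below 10, logarithmic above) of Lgals1, Anxa1 and Anxa5, of the microglia genes Tmem119 and P2ry12 and of the border macrophage genes Pf4 and Mrc1 in CAM_1 (left) and CAM_2 (right), 1 point per library, coloured by tissue and shaped by time after MCAO. In control brain (red circles) the 3 members and Pf4 are low and Tmem119 is at 3085 and 3268 CPM.

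**Figure D5:**
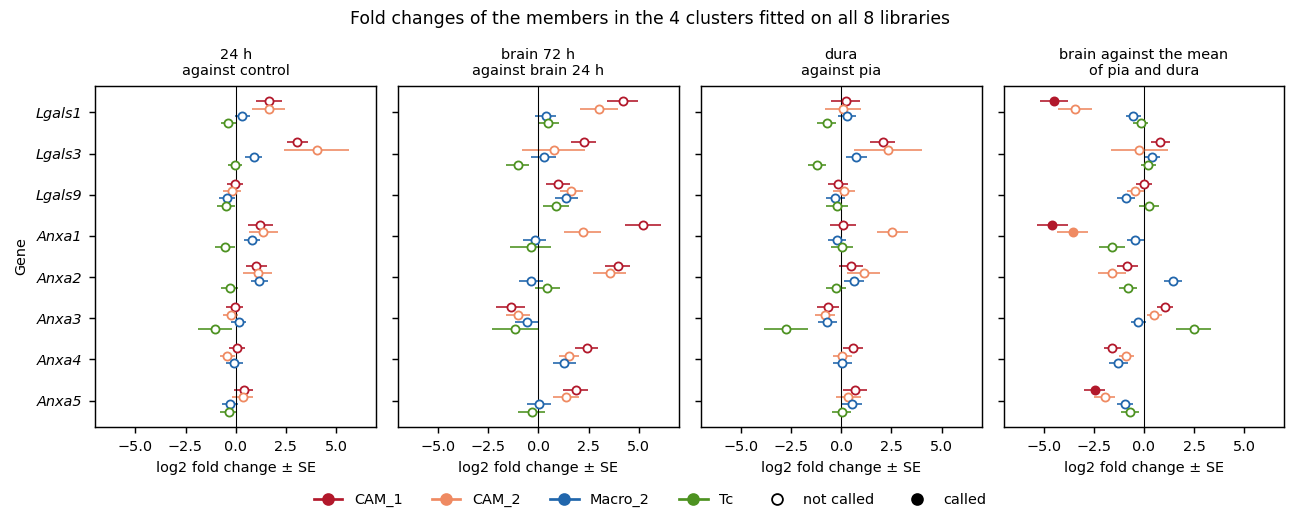
Log2 fold change ± SE of the 8 genes from edgeR in the 4 clusters fitted on all 8 libraries, in 1 panel per comparison, with filled points for tests past the adjusted p and 2-fold thresholds. The 4 filled points are Lgals1, Anxa1 and Anxa5 in CAM_1 and Anxa1 in CAM_2, all lower in brain than in the meninges in control and 24 h libraries.

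Related genes were taken from 6 lists. Of 7 other annexins 3 were high enough for a test, and of 8 genes listed as other galectins 2 were, Lgals8 and Lgals3bp, the latter encoding a galectin-3 binding protein and not a galectin, and none of their tests was called by edgeR in any comparison. The lists of annexin A1 receptors, annexin partners, galectin binding proteins and genes of phosphatidylserine uptake had no call in the first 3 comparisons either. There, among all 6 lists, edgeR gave 21 of 231, 33 of 231 and 8 of 177 tests at an unadjusted p under 0.05. The shares among all genes at that threshold are given above as ranges over clusters. DESeq2 called 0, 3 and 0. Brain against the meninges gave 11 calls in 177 list tests with edgeR and 20 with DESeq2, those of edgeR all in CAM_1 and CAM_2, where 7.1% and 3.81% of all genes were called.

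Of the annexin A1 receptors, 2 of 5 tests were lower in brain, both of Fpr1, the formyl peptide receptor 1. Fpr1 in CAM_1 had 0, 1 and 0 UMIs in control brain and brain 24 h replicates 1 and 2 and 30.7, 32.2, 8.62 and 25.0 CPM in control pia, pia 24 h, control dura and dura 24 h (log2 fold change -5.85, SE 0.85, adjusted p = 0.00607 in edgeR's quasi-likelihood test). The receptor and its ligand Anxa1 were thus both lower in brain in this cluster in the control and 24 h libraries. In brain 72 h, Anxa1 was 75.2 CPM, above the meninges, while Fpr1 had 1 UMI. Of the genes of phosphatidylserine uptake, 6 of 45 tests were lower, of Timd4, Gas6 and Axl in both clusters. Timd4, a phosphatidylserine receptor of resident macrophages, had 0 UMIs in all 4 brain libraries in CAM_2 (log2 fold change -7.98, SE 1.17, adjusted p = 0.0036 in edgeR). Tmem119 was higher and Pf4 lower in the brain sums of both clusters than in the meninges. The part of this in the differences of Fpr1, Timd4, Gas6 and Axl was not tested.

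Of the galectin binding proteins, 2 of 63 tests were higher in brain, both of Havcr2, which encodes the galectin-9 receptor TIM-3. Havcr2 in CAM_1 was 163, 77.3 and 150 CPM in control brain and brain 24 h replicates 1 and 2 and 4.31 to 9.83 CPM in the meninges (3.50, SE 0.46, adjusted p = 0.00417 in edgeR's quasi-likelihood test). The cluster with the highest mean of Havcr2 was stress_Micro (187 CPM). Tmem119 in the same CAM_1 sums of brain was 3085, 1344 and 291 CPM, and its part in the Havcr2 difference was not tested. Lgals9 itself was 131, 99.3 and 95.7 CPM in those brain libraries and 56.1 to 93.9 CPM in the meninges and did not pass the test. Of the annexin partners, 1 of 40 tests was lower in brain, S100a10 in CAM_1, named here after its value was seen (-2.96, SE 0.63, adjusted p = 0.0277 in edgeR), whose partner Anxa2 was not called in that cluster (-0.82, SE 0.50, adjusted p = 0.35).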

How the data were processed

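Single-cell suspensions were counted by the authors with Cell Ranger 6.0 on the mm10 genome, and the deposited matrices hold raw UMI counts per gene and cell barcode. Cluster names were taken from the deposited annotation, for which the authors filtered cells, removed doublets, integrated libraries and clustered. From there, counts of annotated cells were summed per library and cluster over the 30406 genes shared by all libraries. Sums of at least 30 cells entered edgeR 4.0.16 fits (filterByExpr, TMM, robust quasi-likelihood, additive tissue and time); DESeq2 1.42.0 served as an alternative, and the script was checked on simulated data. Intervals are exact at 95%. Libraries, not mice, were replicates, and only brain 24 h had a replicate library. The p-values thus measure the spread between libraries, which may be technical, mixed with differences between tissues in the change by 24 h. The supplement gives kit version 3 for brain 72 h and dura 24 h, whereas cell barcodes group brain 72 h with brain 24 h replicate 2. All 8 members were named; of the lists, up to 2 genes per direction and comparison with the largest fold among those called; as most alike, the 5 genes with the highest r among genes of at least 50 CPM without mitochondrial and ribosomal genes. Members and lists were chosen with earlier results of these data known. Motifs and promoters came from RefSeq windows, which 6 members matched.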

Additional observations from a re-analysis of the deposited data

Results flagged for a closer look

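In CAM_1, Anxa3 was lower in brain 24 h replicates 1 and 2 (427 and 354 CPM) than in control brain (585 CPM), while pia 24 h (236 CPM) was higher than control pia (189 CPM). In the same cluster Anxa5 went the other way, higher in brain 24 h (220 and 146 CPM) than in control brain (60.3 CPM) and lower in pia 24 h (385 CPM) than in control pia (451 CPM). Both brain 24 h libraries thus moved opposite to the single pia 24 h library, and the difference between tissues was not tested. Dura 24 h against control dura sided with the pia for both genes (155 against 99.2 CPM for Anxa3, 632 against 681 CPM for Anxa5). Tmem119 in the same CAM_1 sums was 3085 CPM in control brain and 1344 and 291 CPM in brain 24 h, and its part in the differences was not tested.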

How the results depend on the processing

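Members called at 24 h against control numbered 0, and 1 with DESeq2, 1 without the low-count filter, 0 to 9 with 1 library left out and 9 without the 2 libraries on the shorter gene list, an alternative added after seeing the data. For brain 72 h against 24 h the 0 became 2 with DESeq2, 1 with at least 60 cells, 8 without the filter and 0 to 22 with 1 library left out. For dura against pia the 0 became 1 with at least 10 cells, 1 with at least 60 cells, 8 without the shorter-list libraries and 0 to 8 with 1 library left out. For brain against the meninges the 4 became 10 with DESeq2, 9 with at least 10 cells, 11 with at least 60 cells, 11 without the filter, 1 without the kit version 3 libraries, 15 without the shorter-list libraries, 2 without CAM_1 and CAM_2 of control brain (also added later) and 1 to 17 with 1 library left out. The cause was not tested. The share of all genes called moved with the setting too. It is given above for the fits without brain 24 h replicate 2 and not for the other settings. The member counts are thus not read as a result about these genes. Of 767 alternative fits of the 49 member tests with an unadjusted p under 0.05, 0 turned direction. Tests picked for a small p and refitted on largely the same libraries have little room to turn, so this count is no support. The leading cluster stayed the same for 5 of 8 members with at least 10 cells, for 4 with UMIs of all libraries pooled and for 5 to 8 with 1 library left out. The share of Granulo_1 cells with a UMI of Lgals3 fell from 88.4% to 63.8% when thinned to 500 UMIs. Neighbouring clusters further apart than the larger SD numbered 5 in place of 9 with at least 10 cells. No paired analysis was possible because the groups compared share fewer than 2 replicate numbers. The 72 h contrast was not run without brain 72 h, the kit version 3 libraries or the shorter-list libraries.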
